A study of Mus musculus with 19 samples.

Results

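The genes described here are 10 members of the EGF receptor and HGF signalling systems in regenerating mouse liver. They are Tgfa, Hbegf, Areg, Ereg and Btc, which encode ligands of the EGF receptor family, the receptor genes Egfr and Erbb3, Hgf and its receptor gene Met, and Errfi1, which encodes an inhibitor of the EGF receptor. The members were chosen by name, and each gene was read from the probe set that carries its symbol alone in the platform annotation and has the highest mean over all arrays. Of the 10 genes, 9 had such a probe set among the 18193 genes of the array. Areg did not and is not analysed here. Testing required a level over log2 4 on 4 or more arrays. This was met by 8515 genes and by 6 members, Tgfa, Hbegf, Egfr, Erbb3, Met and Errfi1. Ereg, Btc and Hgf lay over that level on 0 of 19 arrays.

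RNA was measured on 1 Affymetrix array per mouse in the livers of 19 male C57BL/6 mice aged 10 to 12 weeks. All of them, the controls included, had lost 85% of the liver 2 h earlier, and livers without resection are not analysed here. There were 5 WT mice, 6 Ager-null mice, 4 Myd88-null mice and 4 mice null for both genes, called double-null below. The product of Ager is RAGE, a receptor on the cell surface for ligands that stressed cells release, and Myd88 encodes the adaptor of most Toll-like receptors and of the interleukin-1 receptor. The comparisons ask whether loss of either receptor route, or of both, goes with other levels of the growth factor genes early after resection. The labels describe the alleles only as null and name no cell type of deletion, so the loss is not tied to hepatocytes or to any other liver cell.

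EGF receptor ligands are made as membrane-bound precursors that proteases release, and the freed ligand pairs Egfr with itself or with a relative such as Erbb3. Erbb3 has little kinase activity of its own and mainly recruits PI3 kinase. HGF is made in liver chiefly by stellate and endothelial cells, is stored as an inactive precursor, is cut by serine proteases and then acts on Met, which hepatocytes carry. Both routes feed the Ras, ERK and PI3 kinase relays, and both are known as drivers of hepatocyte proliferation after partial hepatectomy.

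Promoter windows, from 250 bases before to 50 bases after the annotated start, were found in the RefSeq table for build GRCm38.p6 for 7 members and not for Erbb3, Ereg or Hbegf. The windows of Met, Tgfa and Egfr are shown because these genes had the smallest p-values among the tested members with a window. Capitals mark matches, on either strand, to 5 motifs. The CRE was searched as TGACGTCA and the site of AP-1, a factor downstream of ERK, as TGANTCA. The site of ETS factors, which ERK also acts on, was searched as CCGGAAG. The GC box was searched with the letters GGGCGG, and the kappaB site, bound by a factor downstream of Myd88, by its consensus.
Met promoter (chr6:17463707-17464006, plus strand): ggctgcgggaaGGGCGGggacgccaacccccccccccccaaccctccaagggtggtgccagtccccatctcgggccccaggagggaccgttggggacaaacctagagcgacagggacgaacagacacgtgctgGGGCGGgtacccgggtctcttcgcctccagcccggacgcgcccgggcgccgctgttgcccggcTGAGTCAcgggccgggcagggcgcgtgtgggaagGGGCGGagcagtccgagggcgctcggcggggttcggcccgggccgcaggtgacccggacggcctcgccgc
Tgfa promoter (chr6:86194972-86195271, plus strand): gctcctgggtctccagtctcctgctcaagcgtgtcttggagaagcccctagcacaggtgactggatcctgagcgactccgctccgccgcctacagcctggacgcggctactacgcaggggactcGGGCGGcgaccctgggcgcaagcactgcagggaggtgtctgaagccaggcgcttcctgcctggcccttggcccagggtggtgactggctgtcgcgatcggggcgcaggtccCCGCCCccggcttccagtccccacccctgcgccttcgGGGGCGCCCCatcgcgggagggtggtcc
Egfr promoter (chr11:16751953-16752252, plus strand): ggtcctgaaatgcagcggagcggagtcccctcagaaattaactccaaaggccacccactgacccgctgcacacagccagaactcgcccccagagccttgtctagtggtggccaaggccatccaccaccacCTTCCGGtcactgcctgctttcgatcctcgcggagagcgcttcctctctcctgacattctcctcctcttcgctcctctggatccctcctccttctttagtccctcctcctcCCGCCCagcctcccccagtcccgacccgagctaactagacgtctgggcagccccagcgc
The Met window held 1 AP-1 match, 54 bases before the start, and 3 GC boxes. The Tgfa window held 1 kappaB match, which begins after the start, and 2 GC boxes. No matches overlapped in these 3 windows. The Egfr window held 1 ETS match and 1 GC box. Of 32851 windows of 300 bases in the table, 7.81% held the AP-1 motif, 8.46% the kappaB motif, 8.86% the ETS motif, 35.7% a GC box and 1.79% a CRE. The CRE was found 51 bases before one of the annotated starts of Errfi1 and 61 bases before that of Areg. These matches describe letters in a window and say nothing about binding.

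Array quality was similar across groups. Correlations between arrays over the tested genes lay between 0.948 and 0.993, and the lowest median, 0.965, belonged to Myd88-null replicate 4, where the next lowest array had 0.979. Myd88 read 5.24 to 6.39 on the arrays of groups that carry the gene and 2.6 to 3.86 on those of the groups null for it, without overlap. Ager averaged 3.1 to 3.37 (log2) in all 4 groups, under the filter, and checks nothing about its label. The labels' RNA protocol mentions glomeruli, although the tissue label is liver. The hepatocyte marker list averaged 13.24 to 13.45 per array and the kidney and glomerulus list 2.49 to 2.75, with 0 of 9 kidney markers over log2 4 on all arrays. In whole tissue, fewer cells of a type and less RNA per cell cannot be told apart. The 3' minus 5' difference of the Gapdh control was between 0.07 and 0.44 and that of Actb between 1.1 and 1.68 (log2). The Actb ranges overlapped across groups. Those of Gapdh did too, except that Ager-null (0.08 to 0.15) and double-null (0.15 to 0.27) only met at 0.15. Each sample description also carries an S number without a stated meaning. S 1 to 6 and S 7 to 12 hold WT, Myd88-null and double-null arrays, and S 13 to 20 holds all Ager-null arrays with 1 WT and 1 Myd88-null array. No S range holds both Ager-null and double-null arrays, so that pair has no value within a range.

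Among the ligands, Tgfa lay well over the filter and Hbegf on either side of it. All values below are log2 expression levels, differences between groups are log2 differences with the standard error of the limma fit, and adjusted p is limma's p after Benjamini-Hochberg adjustment across the 8515 tested genes. A difference is called at an adjusted p under 0.05. The comparisons with WT share the WT arrays, and those of the double-null group share its arrays, so they are not independent of each other.

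Tgfa encodes TGF-alpha, a ligand that binds Egfr and that hepatocytes make themselves. The WT arrays read 6.37, 6.05, 6.45, 6.47 and 6.09, and the Ager-null arrays ran from 6.43 through a median of 6.72 to 7.38. The Myd88-null arrays read 6.5, 6.33, 6.89 and 6.84, and the double-null arrays 6.53, 6.49, 6.48 and 6.76. All 4 double-null arrays lay above all 5 WT arrays, while both single-null groups overlapped WT. The group means were 6.29 ± 0.20 in WT (SD, n = 5), 6.78 ± 0.32 in Ager-null (n = 6), 6.64 ± 0.27 in Myd88-null (n = 4) and 6.56 ± 0.13 in double-null (n = 4). The difference between Ager-null and WT was 0.50 ± 0.15, a 1.41-fold higher mean (limma adjusted p = 0.082, exact permutation p = 0.0087, two-sided and unadjusted). Between Myd88-null and WT it was 0.35 ± 0.17 (limma adjusted p = 0.25, exact permutation p = 0.095), and 0.20 with quantile normalization (limma adjusted p = 0.56). Within the S ranges the latter was 0.20, 0.43 and 0.75, from the lowest S numbers to the highest, and in S 13 to 20 Ager-null minus WT was 0.70. Neither passed the threshold, and the other pairwise differences of Tgfa had limma adjusted p-values from 0.42 to 0.83. The other Tgfa probe sets, 1421942_s_at and 1450421_at, lay over log2 4 on 0 arrays and gave Ager-null minus WT differences of 0.02 and -0.01.

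Hbegf encodes heparin-binding EGF-like growth factor, a ligand of Egfr. It lay over log2 4 on 11 of 19 arrays. The WT arrays read 4.42, 6.24, 3.14, 3.41 and 4.04, and the Ager-null arrays ran from 3.6 through a median of 3.83 to 4.13. The Myd88-null arrays read 5.31, 4.68, 4.84 and 3.46, and the double-null arrays 3.94, 4.36, 5.9 and 5.92. Ager-null arrays were narrowly spread (3.84 ± 0.22, SD, n = 6), whereas WT was not (4.25 ± 1.22, n = 5), with replicate 2 far above its group. The means were 4.57 ± 0.79 in Myd88-null (n = 4) and 5.03 ± 1.03 in double-null (n = 4), and both groups overlapped all others. Double-null minus Ager-null was 1.19 ± 0.51 (limma adjusted p = 0.18, 95% confidence interval 0.11 to 2.26), and 1.02 with values under log2 4 set to 4. No fold is given, since the Ager-null mean lay under log2 4 and 2 of its 6 arrays over it. With the S range as a block it was 0.35. A second Hbegf probe set, 1418349_at, was over log2 4 on 4 arrays and gave 1.33 ± 0.43 (limma adjusted p = 0.094). In the other 6 comparisons Hbegf had limma adjusted p-values of 0.45 to 0.76 and confidence intervals between -1.8 and 2.41.

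The ligand genes Ereg (epiregulin) and Btc (betacellulin) stayed under the filter in every group. Ereg averaged 3.08 in WT, 3.06 in Ager-null, 3.08 in Myd88-null and 2.86 in double-null, with array values from 2.38 to 3.74. Btc averaged 3.26, 3.04, 2.92 and 3.34 in the same order, with array values from 2.54 to 3.55. Values this low were not tested, and their order between groups is not read as a difference in expression. Ereg, Areg and Btc lie close together on chromosome 5. No member lies on chromosome 17 or 9, where Ager and Myd88 lie.

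**Figure D1:**
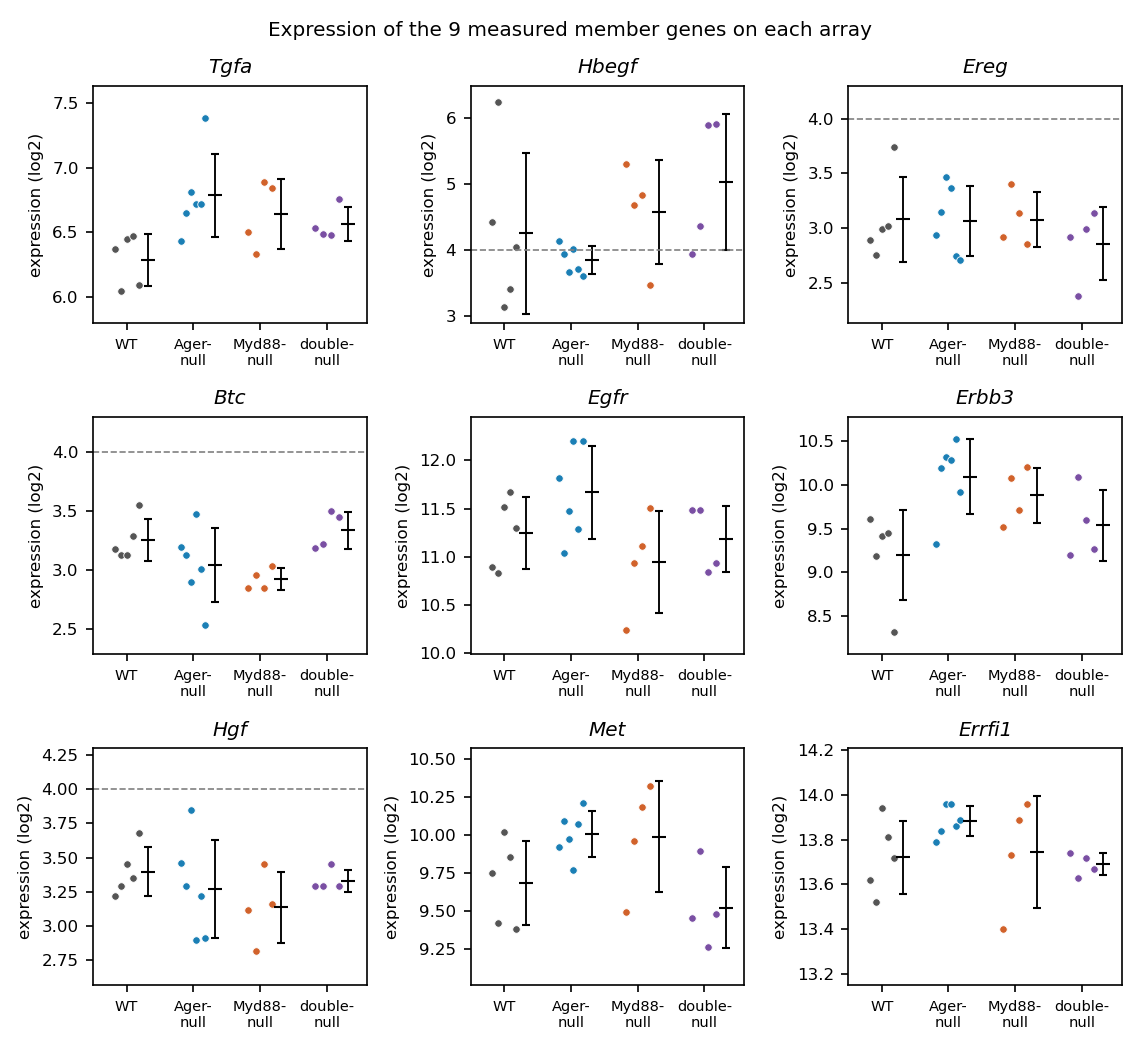
Log2 expression of the 9 measured member genes (vertical axes) on each of the 19 arrays, by genotype. Points are arrays, bars are the group mean with its SD, and the dashed line is the filter at log2 4 where it falls within the axis. Ereg, Btc and Hgf lie under the line on all arrays, and Tgfa lies above every WT array in all 4 double-null livers.

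Of the receptors, Egfr had its highest mean in Ager-null and its lowest in Myd88-null livers. Egfr encodes the EGF receptor itself, which is abundant in hepatocytes. On its brightest probe set (1435888_at) the WT arrays read 10.89, 10.83, 11.52, 11.67 and 11.3, and the Ager-null arrays ran from 11.04 through a median of 11.65 to 12.2. The Myd88-null arrays read 10.24, 10.93, 11.11 and 11.51, and the double-null arrays 11.48, 11.48, 10.84 and 10.93. The groups overlapped throughout. The means were 11.24 ± 0.38 in WT (SD, n = 5), 11.67 ± 0.48 in Ager-null (n = 6), 10.95 ± 0.53 in Myd88-null (n = 4) and 11.18 ± 0.34 in double-null (n = 4). Ager-null minus WT was 0.43 ± 0.25 (limma adjusted p = 0.33) and Myd88-null minus WT -0.29 ± 0.28 (limma adjusted p = 0.57). The latter was -0.05 without Myd88-null replicate 1, -0.18 without WT replicate 4 and -0.48 without Myd88-null replicate 4. Without Myd88-null replicate 1 the Myd88-null mean was 11.19 beside 11.18 in double-null, so on this probe set the lowest place of Myd88-null rests on that array. Ager-null minus Myd88-null was 0.72 ± 0.27, or 1.65-fold (limma adjusted p = 0.20, exact permutation p = 0.067, two-sided and unadjusted). With the S range as a block Ager-null minus WT was 0.12 and Ager-null minus Myd88-null 0.41. Within the ranges Myd88-null minus WT was -0.27, -0.49 and 0.22, from the lowest S numbers to the highest, and in S 13 to 20 Ager-null minus WT was 0.37.

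Egfr has 7 single-symbol probe sets, 4 of them past the filter, and these 4 ranked Ager-null first and Myd88-null last by group mean. Without Myd88-null replicate 1 that group stayed lowest on 1451530_at (7.94, next 8.2) and 1460420_a_at (10.35, next 10.62), and on 1424932_at it read 11.08, as double-null did. Ager-null minus Myd88-null was 0.79 ± 0.25 on 1424932_at (limma adjusted p = 0.12) and 1.42 ± 0.44 on 1451530_at (limma adjusted p = 0.11). On 1460420_a_at it was 0.73 ± 0.15, which passed the threshold (limma adjusted p = 0.022). There the Ager-null arrays ran from 10.81 to 11.45 and the Myd88-null arrays read 10.47, 10.53, 10.53 and 9.99. So the groups did not overlap, as was the case for 3.92% of all tested genes. Probe sets of one gene share their RNA and are not replicates. The probe set was singled out after its values were seen, and the call was lost without Ager-null replicate 4 (0.66, limma adjusted p = 0.051) or without Myd88-null replicate 4 (0.60, limma adjusted p = 0.082). It was kept with the S range as a block (0.80, limma adjusted p = 0.031). On the 4 Egfr probe sets Ager-null minus WT lay between 0.43 and 0.91, and Myd88-null minus WT between -0.51 and -0.24, with 0 of these differences called. The remaining 3 Egfr probe sets averaged 1.71 to 3.62 and lay over log2 4 on 0 arrays.

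**Figure D2:**
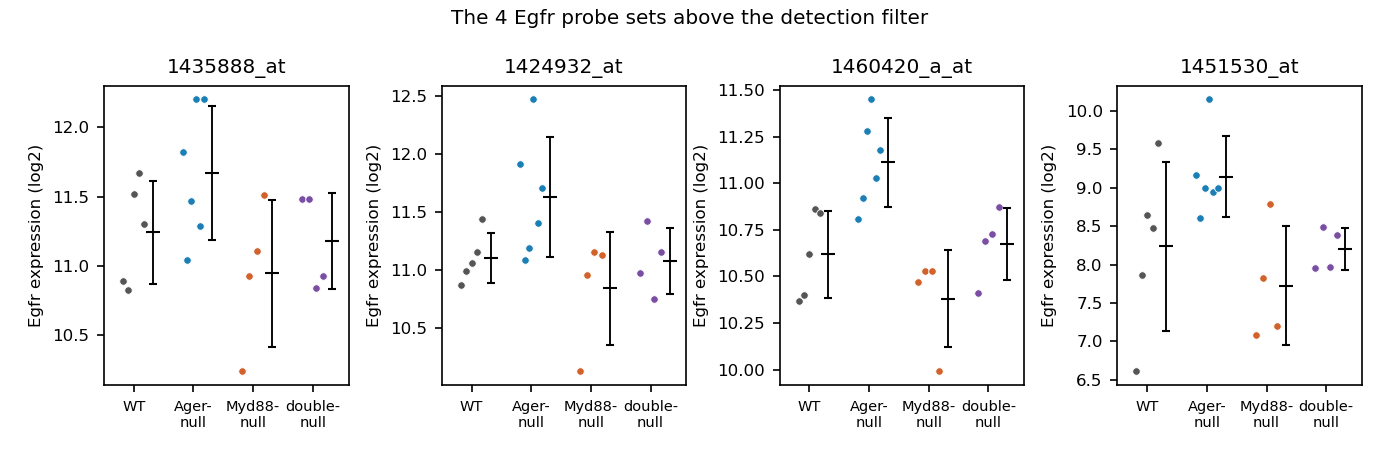
Log2 expression of Egfr (vertical axes) on its 4 probe sets past the filter, by genotype. Points are arrays and bars are the group mean with its SD. On 1460420_a_at all 6 Ager-null arrays (10.81 to 11.45) lie above all 4 Myd88-null arrays (9.99 to 10.53).

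Among the brightest probe sets of the members, Erbb3 had the largest difference from WT, 0.91 in Ager-null. Without WT replicate 5 it was 0.69, below the 0.73 of Hbegf in double-null against WT, and the second Hbegf probe set, 1418349_at, gave 1.12 ± 0.44 in that comparison (limma adjusted p = 0.44). Its protein is the kinase-impaired partner that links ErbB dimers to PI3 kinase. The WT arrays read 9.61, 9.18, 9.41, 9.45 and 8.31, and the Ager-null arrays ran from 9.32 through a median of 10.24 to 10.53. The Myd88-null arrays read 9.52, 10.08, 9.71 and 10.21, and the double-null arrays 9.2, 10.09, 9.6 and 9.26. In Ager-null, 5 of 6 arrays lay above the highest WT array, and WT replicate 5 was the lowest of all arrays. The means were 9.19 ± 0.52 in WT (SD, n = 5), 10.1 ± 0.43 in Ager-null (n = 6), 9.88 ± 0.32 in Myd88-null (n = 4) and 9.54 ± 0.41 in double-null (n = 4).

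Ager-null minus WT was 0.91 ± 0.24 for Erbb3, a 1.87-fold higher mean (limma adjusted p = 0.064, exact permutation p = 0.013, two-sided and unadjusted). Without WT replicate 5 its limma adjusted p was 0.17. It was 1.79 within S 13 to 20, where that array is the only WT array, and 1.06 without Ager-null replicate 1 (limma adjusted p = 0.034). Without Myd88-null replicate 1, which enters only the shared spread, it passed as well (limma adjusted p = 0.043). Myd88-null minus WT was 0.69 ± 0.27 (limma adjusted p = 0.18, exact permutation p = 0.032), and it was 0.41 within S 1 to 6, 0.28 within S 7 to 12 and 1.9 within S 13 to 20. Double-null minus Ager-null was -0.56 ± 0.26 (limma adjusted p = 0.21, exact permutation p = 0.09), or -0.91 with the S range as a block. The other pairwise differences had limma adjusted p-values from 0.54 to 0.77. The second Erbb3 probe set, 1452482_at, averaged 2.67 and lay over log2 4 on 0 arrays.

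Hgf lay under the filter in all groups, while its receptor gene Met was well measured. The Hgf arrays read 3.22 to 3.68 in WT, 2.9 to 3.85 in Ager-null, 2.82 to 3.45 in Myd88-null and 3.29 to 3.45 in double-null, and the means were 3.4, 3.27, 3.14 and 3.33. Ager-null minus WT was -0.13 and Myd88-null minus WT -0.26, with no test. The other Hgf probe sets, 1425379_at and 1442884_at, averaged 3.19 and 3.28 and also lay over log2 4 on 0 arrays. The stellate cell and fibroblast marker list, whose cells are a main source of HGF, has 8 of 12 genes over log2 4 on all arrays. It averaged 6.76 to 7.13 on WT arrays, 7 to 7.45 on Ager-null, 6.97 to 7.32 on Myd88-null and 7.19 to 7.42 on double-null arrays. Of its 9 tested genes 4 had an unadjusted p under 0.05 in Ager-null against WT (background 21.6%), and 1, the collagen gene Col1a2, was called. Col1a2, singled out after its values were seen, averaged 4.32 in Ager-null against 3.6 in WT, 3.51 in Myd88-null and 3.67 in double-null, so it was over log2 4 on average in Ager-null alone. Col1a2 lay over log2 4 on 5 arrays, with a highest value of 4.79, so its calls compare values near the filter. Its Ager-null arrays overlapped no other group, so all 5 of these arrays were Ager-null. The gene thus passed the filter only through the group where it is high, and no conclusion is drawn from its calls. Col1a2 was called higher in Ager-null than in WT (limma adjusted p = 0.036, 1.26% of all genes called) and in Myd88-null (limma adjusted p = 0.022, 1.26%). It was called lower in double-null than in Ager-null (limma adjusted p = 0.048, 2.44%). All Ager-null arrays lie in S 13 to 20, and Col1a2 was not tested with the S range as a block. The sinusoidal endothelium list averaged 6.72 to 7.15 in WT, 6.51 to 7.48 in Ager-null, 6.88 to 7.29 in Myd88-null and 7.03 to 7.17 in double-null. The part of these cells in the member values was not tested.

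Met encodes the HGF receptor. The WT arrays read 9.75, 9.42, 10.02, 9.85 and 9.38, and the Ager-null arrays ran from 9.77 through a median of 10.02 to 10.21. The Myd88-null arrays read 9.49, 9.96, 10.18 and 10.32, and the double-null arrays 9.45, 9.89, 9.26 and 9.48. Among the double-null arrays only replicate 2 reached the range of Ager-null. The means were 9.68 ± 0.28 in WT (SD, n = 5), 10.01 ± 0.15 in Ager-null (n = 6), 9.99 ± 0.36 in Myd88-null (n = 4) and 9.52 ± 0.27 in double-null (n = 4).

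Both single-null groups thus averaged above WT and the double-null group below it for Met, with no pairwise call. Ager-null minus WT was 0.32 ± 0.16 (limma adjusted p = 0.24) and Myd88-null minus WT 0.30 ± 0.17 (limma adjusted p = 0.34). The latter was 0.19 with median centring or without Myd88-null replicate 4, and 0.47 without Myd88-null replicate 1. Within S 13 to 20, where WT and Myd88-null have 1 array each, these were 0.63 and 0.94, and Myd88-null minus WT was 0.14 and 0.25 in the lower S ranges. Double-null minus Ager-null was -0.49 ± 0.17, or 0.714-fold (limma adjusted p = 0.11, exact permutation p = 0.0095, two-sided and unadjusted). Double-null minus Myd88-null was -0.47 ± 0.18 (limma adjusted p = 0.26, exact permutation p = 0.057). The last of these was -0.05 in the arrays of S 1 to 6, -0.81 in those of S 7 to 12, and without Myd88-null replicate 1 it was -0.63 and passed (limma adjusted p = 0.044). Double-null minus WT and Ager-null minus Myd88-null had limma adjusted p-values of 0.84 and 0.97. On the dimmer Met probe set, 1422990_at, which was over log2 4 on 14 arrays, Myd88-null minus WT was -0.01 and double-null minus Ager-null -0.86 ± 0.39 (limma adjusted p = 0.20).

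Errfi1 encodes MIG6, which binds the EGF receptor kinase and shuts it off, and it is itself switched on by growth factor signals. The WT arrays read 13.62, 13.52, 13.94, 13.81 and 13.72, and the Ager-null arrays ran from 13.79 through a median of 13.87 to 13.96. The Myd88-null arrays read 13.4, 13.73, 13.89 and 13.96, and the double-null arrays 13.74, 13.63, 13.72 and 13.67. All double-null arrays lay below all Ager-null arrays, and the other groups overlapped. The means were 13.72 ± 0.16 in WT (SD, n = 5), 13.88 ± 0.07 in Ager-null (n = 6), 13.75 ± 0.25 in Myd88-null (n = 4) and 13.69 ± 0.05 in double-null (n = 4). Ager-null minus WT was 0.16 ± 0.10 (limma adjusted p = 0.36) and Myd88-null minus WT 0.02 ± 0.11 (limma adjusted p = 0.92, 95% confidence interval -0.21 to 0.26). The former was 0.06 with the S range as a block. Double-null minus Ager-null was -0.19 ± 0.11 (limma adjusted p = 0.30), and on the second probe set, 1419816_s_at, it was -0.29 ± 0.17 with no overlap of the groups (limma adjusted p = 0.32).

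Set side by side, 0 of the 6 tested members were called by limma in each of the 7 comparisons. In Ager-null against WT 1.26% of all tested genes were called. At an unadjusted p under 0.05 there were 2 members, Erbb3 and Tgfa, where 21.6% of all tested genes had such a p. In Myd88-null against WT 0.399% of all genes were called. The same unadjusted count was 2, again Erbb3 and Tgfa, against a background of 19.6%. In double-null against WT 0.317% were called, and 0 members had an unadjusted p under 0.05 (background 8.57%). Tgfa was the single member there whose groups did not overlap, as was the case for 3.81% of all tested genes.

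Between mutant groups the picture was similar. In double-null against Ager-null 2.44% of all genes were called, and 3 members, Hbegf, Erbb3 and Met, had an unadjusted p under 0.05 (background 22.7%). Errfi1 was the member without overlap (background 8.39%). In double-null against Myd88-null 0.153% were called and Met had such a p (background 16.1%), and in Ager-null against Myd88-null 1.26% were called and Egfr had one (background 15.9%). The median difference of the 6 members was 0.38 in Ager-null against WT (0.02 over all tested genes), 0.31 in Myd88-null against WT (0.06) and 0.12 in double-null against WT (0.07). It was -0.35 in double-null against Ager-null, where all tested genes had a median of 0.04. In Ager-null against WT, Myd88-null against WT, Ager-null against Myd88-null and double-null against Myd88-null 0 members were without overlap, against 3.7%, 4.52%, 3.92% and 5.91% of all tested genes. With 6 tested members, counts of 0 to 3 beside these backgrounds are no result about the members.

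**Figure D3:**
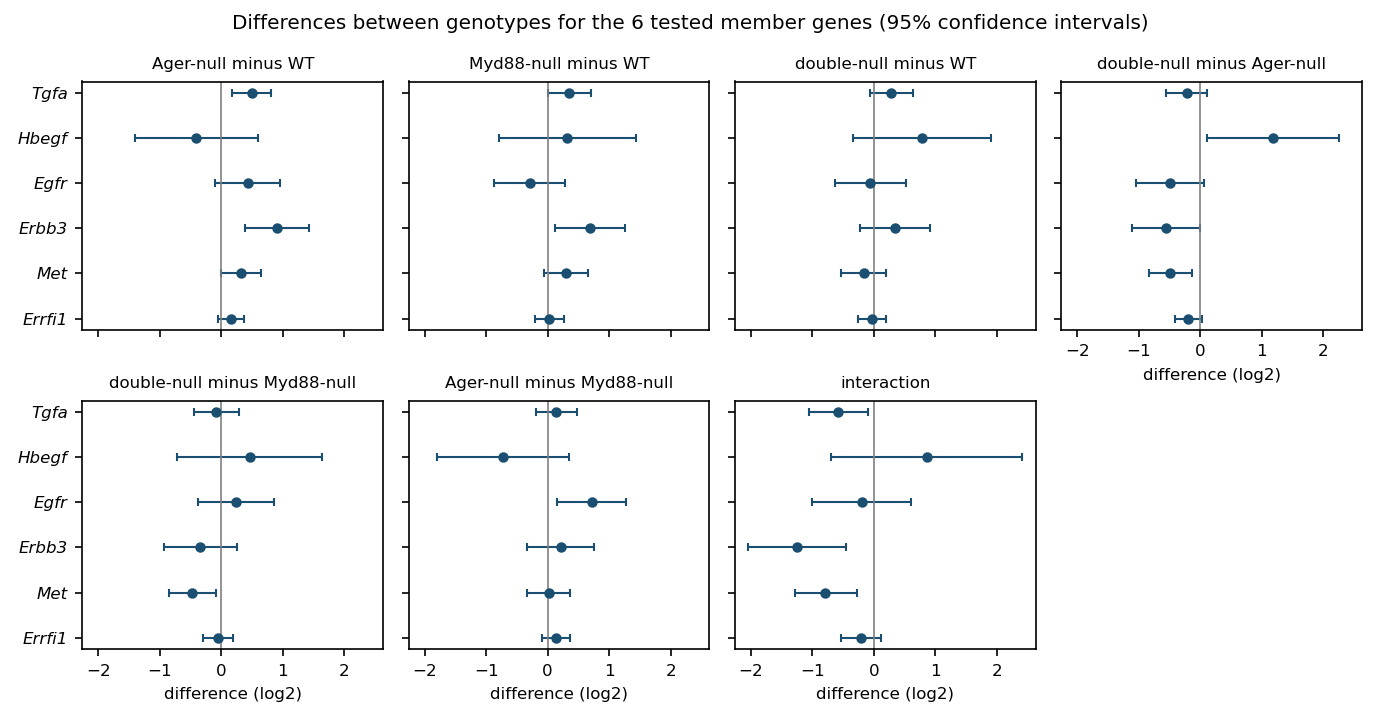
Log2 differences of the 6 tested members (horizontal axes) in the 6 pairwise comparisons and the interaction, as points with 95% confidence intervals from the limma fit. The widest intervals are those of Hbegf, and Erbb3 lies farthest above 0 in Ager-null minus WT at 0.91.

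The interaction asks whether loss of Myd88 goes with another difference where Ager is already absent, (double-null minus Ager-null) minus (Myd88-null minus WT). For Erbb3 the first difference was -0.56 and the second 0.69, which gives -1.25 ± 0.38 (limma adjusted p = 0.065). For Met they were -0.49 and 0.30, which gives -0.79 ± 0.24 (limma adjusted p = 0.067), and for Tgfa -0.22 and 0.35, which gives -0.58 ± 0.23 (limma adjusted p = 0.13). In each of the 3 genes Myd88-null livers averaged above WT, and double-null livers averaged below Ager-null livers. None of the 6 members was called, while 2.41% of all tested genes were, and 3 members had an unadjusted p under 0.05 where 27.2% of all genes did. Egfr (-0.20 ± 0.38), Errfi1 (-0.21 ± 0.15) and Hbegf (0.86 ± 0.74) had limma adjusted p-values of 0.76, 0.37 and 0.45.

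Single arrays moved these values across the threshold. Without Myd88-null replicate 1 the interaction was called for Erbb3 (-1.37, limma adjusted p = 0.024) and Met (-0.95, limma adjusted p = 0.0096). Without Ager-null replicate 1 it was called for Erbb3 (-1.40, limma adjusted p = 0.040), and without WT replicate 3 for Met (-0.87, limma adjusted p = 0.044). With the S range as a block the estimates were -1.61 for Erbb3 (limma adjusted p = 0.21) and -0.80 for Met (limma adjusted p = 0.33).

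**Figure D4:**
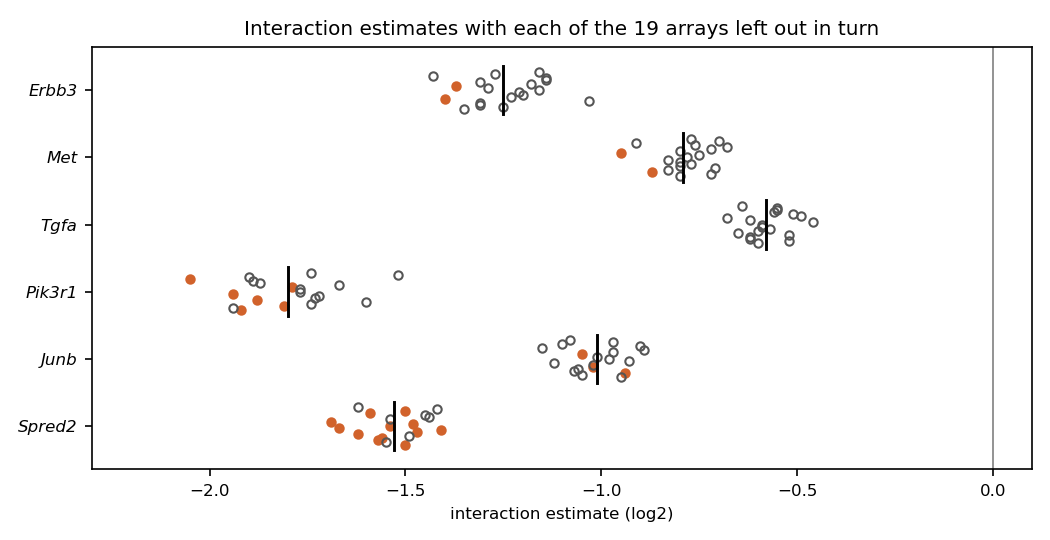
Interaction estimates (log2, horizontal axis) of Erbb3, Met, Tgfa and the 3 pathway genes called in the interaction, with each of the 19 arrays left out in turn. Each point is one fit, filled orange where the adjusted p was under 0.05, and the black line is the estimate from all arrays. All estimates lie below 0, from -2.05 (Pik3r1) to -0.46 (Tgfa). The genes were picked for small p-values in this interaction, with negative estimates from all arrays, so the shared sign is no result. The other tested members, Hbegf (0.86), Egfr (-0.20) and Errfi1 (-0.21), are not shown.

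The wider pathway was described with 97 further genes in 8 lists by role, of which 91 were on the array under their own probe set and 59 were tested. In the 6 pairwise comparisons 0 of the 59 were called by limma. At an unadjusted p under 0.05 there were 9 (15.3%) in Ager-null against WT, where 21.6% of all tested genes had such a p, 17 (28.8%) in Myd88-null against WT (background 19.6%) and 5 (8.47%) in double-null against WT (background 8.57%). Between mutant groups there were 17 in double-null against Ager-null (background 22.7%), 17 in double-null against Myd88-null (16.1%) and 9 in Ager-null against Myd88-null (15.9%). In the interaction 3 of the 59 were called, all with negative estimates, where 2.41% of all tested genes were called, and 24 (40.7%) had an unadjusted p under 0.05, against 27.2% of all tested genes. The median over the 59 was 0.15, 0.27 and 0.02 in the 3 comparisons with WT and -0.43 in the interaction, where all tested genes had -0.02.

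Pik3r1, the regulatory subunit of PI3 kinase that docks on Erbb3, was the called gene among 17 of the receptor tyrosine kinase relay. The Pik3r1 arrays read 7.68, 7.76, 7.25, 6.98 and 6.4 in WT and from 6.78 through a median of 7.63 to 7.9 in Ager-null. They read 8.4, 8.75, 8.15 and 8.09 in Myd88-null and 7.56, 7.1, 5.96 and 6.63 in double-null. All Myd88-null arrays lay above every array of the other groups. Of all tested genes 4.52%, 3.92% and 5.91% had no overlap between Myd88-null and WT, Ager-null and double-null. The interaction was -1.80 ± 0.44 (limma adjusted p = 0.044), from a difference of 1.13 between Myd88-null and WT and -0.67 between double-null and Ager-null. The call was lost with the S range as a block (-2.38, limma adjusted p = 0.062), with a block by replicate number (-1.77, limma adjusted p = 0.058), with no filter (limma adjusted p = 0.065) and in 13 of 19 fits with 1 array left out.

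Among 18 early genes that respond to ERK, Junb and Spred2 were called in the interaction. Junb encodes an AP-1 subunit, and Spred2 an inhibitor of the Ras to ERK relay. The Junb arrays read 10.11, 10.53, 10.06, 10.59 and 10.54 in WT and from 10.01 through a median of 10.51 to 10.91 in Ager-null, against 10.61, 10.85, 11.09 and 10.31 in Myd88-null and 9.52, 10.1, 9.73 and 10.05 in double-null. The Spred2 arrays read 7.29, 7.5, 7.56, 7.54 and 7.25 in WT and from 7.52 through a median of 8.32 to 8.82 in Ager-null, against 7.73, 8.17, 8.48 and 8.45 in Myd88-null and 7.63, 7.36, 7.1 and 7.72 in double-null. For Spred2 all Myd88-null arrays lay above WT (background without overlap 4.52%), whereas the double-null arrays overlapped WT and Ager-null. The interaction was -1.01 ± 0.26 for Junb (limma adjusted p = 0.049) and -1.53 ± 0.31 for Spred2 (limma adjusted p = 0.034).

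With the S range as a block the interaction was -1.19 for Junb (limma adjusted p = 0.20) and -1.53 for Spred2 (0.18), and with the replicate block -1.01 (0.067) and -1.48 (0.058), so both calls were lost with estimates about as large or larger. With the mean of all probe sets of a gene, those under the filter included, the Spred2 estimate was smaller, -0.67, and its call was kept (limma adjusted p = 0.039). Quantile normalization (limma adjusted p = 0.051), median centring (0.063), no filter (0.070) and values under log2 4 set to 4 (0.051) each ended the call of Junb. It was kept in 3 of 19 fits with 1 array left out and that of Spred2 in 12 of 19. The median over the 18 early genes was -0.69 in the interaction, 0.42 in Myd88-null against WT and -0.56 in double-null against Myd88-null, where all tested genes had -0.02, 0.06 and 0.

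In the lists closest to the members 0 genes were called in any of the 7 comparisons, and the genes with the smallest p are given here. Of 10 tested brakes on ErbB receptors and Met, the phosphatase gene Ptprk had an interaction of -0.72 ± 0.26 (limma adjusted p = 0.10). Lrig1, which targets ErbB receptors for destruction, stood 0.83 ± 0.30 higher in Myd88-null than in WT (limma adjusted p = 0.15). Its arrays read 7.78 to 7.96 against 6.07 to 7.54, without overlap (background 4.52%). The list had a median of -0.55 in the interaction and of 0.33 in Myd88-null against WT. The next list holds genes of HGF activation together with genes of its inhibitors, and 6 of them were tested. F12, which encodes coagulation factor XII, an activator of the HGF precursor, stood 0.36 ± 0.10 above WT in Ager-null (limma adjusted p = 0.067). Klkb1, which encodes plasma kallikrein, another activating protease, had an interaction of -0.52 ± 0.16 (limma adjusted p = 0.064). All 6 had estimates above 0 against WT in Ager-null (median 0.19, against 0.02 over all tested genes) and in Myd88-null (0.12, against 0.06), none of them called. Since the list mixes activators with inhibitors, this shared sign gives no direction for HGF activation. In double-null 4 were above and 2 below WT, with a median of 0.02 against 0.07.

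Of 6 genes of ligand shedding, Timp3, an inhibitor of the sheddase ADAM17, stood 0.57 ± 0.16 above WT in Myd88-null (limma adjusted p = 0.091). Adam9, a membrane protease, had an interaction of -0.44 ± 0.18 (limma adjusted p = 0.13). Of the EGF family ligands outside the members Nrg4, a ligand of Erbb4, was the only one tested. It read 6.46, 6.61, 7.44 and 7.86 in Myd88-null and 6.07, 5.77, 5.8 and 5.52 in double-null, without overlap (background 5.91%). The difference was -1.30 ± 0.63 for double-null (limma adjusted p = 0.31). Mst1, which encodes the HGF-like ligand MSP, stood 0.24 ± 0.09 above WT in Ager-null (limma adjusted p = 0.15). Erbb2 and Erbb4, the other receptors of the family, did not enter the tests.

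**Figure D5:**
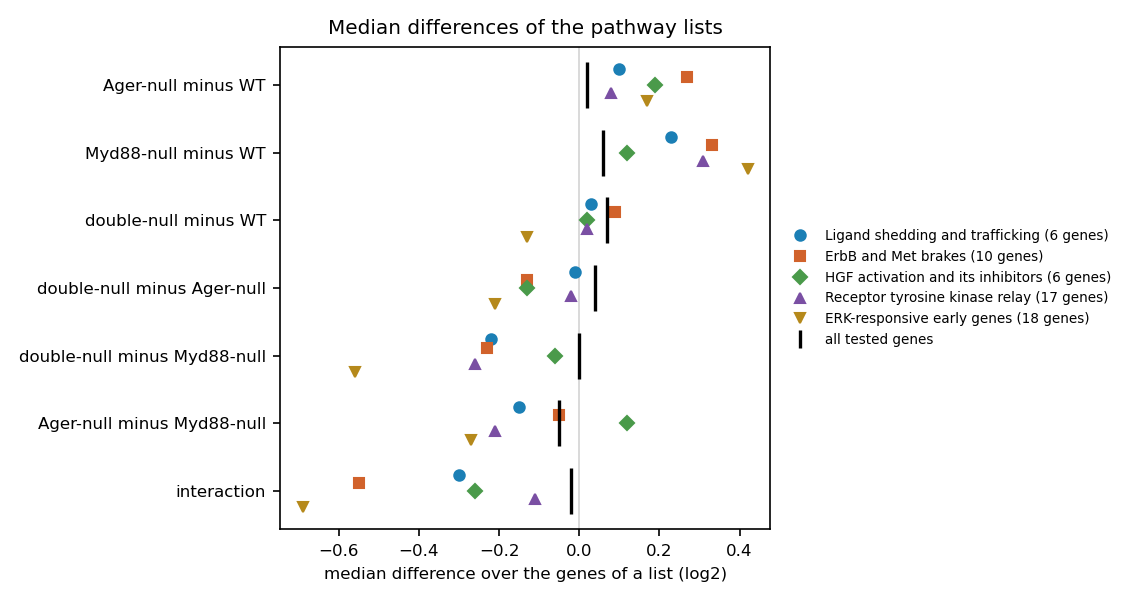
Median log2 difference (horizontal axis) of 5 pathway lists in the 7 comparisons, with the number of tested genes of each list in the legend and the median of all 8515 tested genes as a black bar. The early genes that respond to ERK lie lowest in the interaction at -0.69 and highest in Myd88-null minus WT at 0.42.

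Some members also varied together around their group means. This is described by correlations of deviations from the group mean, pooled over the 19 arrays of all genotypes, with no test. Egfr correlated with Errfi1 (r = 0.67) and Met (0.51), Met with Errfi1 (0.61), Tgfa (0.55) and Erbb3 (0.53), and Hbegf ran against Egfr, Met and Errfi1 (-0.64 each). Tgfa gave 0.43 with Egfr, 0.47 with Errfi1 and -0.34 with Hbegf. Erbb3 gave 0.04 with Egfr, 0.21 with Tgfa, 0.25 with Errfi1 and -0.23 with Hbegf, so the receptor genes Egfr and Erbb3 did not vary together. WT replicate 2 read 6.24 for Hbegf and 10.83, 9.42 and 13.52 for Egfr, Met and Errfi1. Myd88-null replicate 1 read 5.31 for Hbegf and 10.24, 9.49 and 13.4 for the other three. These were the highest Hbegf value of each group with the lowest Egfr and Errfi1 values of that group. Egfr was read from its brightest probe set, here and in the correlations above. On 1424932_at, 1451530_at and 1460420_a_at, which correlated with that probe set at 0.85, 0.66 and 0.51, the pattern held in part. WT replicate 1 was lowest there (10.87, 6.61 and 10.37), below WT replicate 2 (10.99, 7.86 and 10.4). Myd88-null replicate 1 stayed lowest on 1424932_at (10.13) and 1451530_at (7.09), but on 1460420_a_at it read 10.47 and replicate 4 read 9.99. The Ager-null and double-null groups did not show the pattern in full. Ager-null replicate 1, with the highest Hbegf value there (4.13), had the lowest Errfi1 value of its group (13.79). It read 11.82 for Egfr, where the group's lowest was 11.04. Double-null replicate 4, with the highest Hbegf value there (5.92), read 10.93 for Egfr and 13.67 for Errfi1, where the lowest were 10.84 and 13.63. All genes of an array share its RNA, labelling and normalization. The tested genes most like each member by the same measure were Rcor1 (0.91), Nup214 and Edem3 for Egfr, Cdc14b (0.81), Slc27a5 and Taok3 for Erbb3, and Golim4 (0.87), Agt and Masp1 for Met. For Tgfa they were Vps13b (0.85), Farp2 and Pde7a, for Hbegf Xaf1 (0.88), Rps6 and Dhps, and for Errfi1 Lrpprc (0.95), Glg1 and Ankrd11.

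Kupffer cell and macrophage markers had lower medians in both single-null groups than in WT livers, with no gene called and the lowest level on one Myd88-null array. The median array level of the list was 8.9 in WT, 8.43 in Ager-null, 8.47 in Myd88-null and 8.7 in double-null. Of 12 tested genes of the list 11 lay below WT in Myd88-null (median -0.71, against 0.06 over all tested genes) and 11 in Ager-null (median -0.24, against 0.02). In the interaction all 12 were positive, with a median of 0.89 against -0.02. Of the 6 tested members 1, Hbegf (0.86), was positive in the interaction as well and 5 were negative, with 0 called. None of the 12 was called by limma in any of the 7 comparisons. An unadjusted p under 0.05 was found for 2 in Myd88-null against WT (background 19.6%), 0 in Ager-null against WT (21.6%) and 2 in the interaction (27.2%). The list, with 9 of 12 genes over log2 4 on all arrays, averaged 8.22 to 9.22 on WT arrays, 8.01 to 9.17 on Ager-null and 8.35 to 9.07 on double-null arrays. In Myd88-null it averaged 8.73, 8.39 and 8.55 in replicates 1 to 3, within the WT range, and 6.68 in replicate 4, below that range. Without replicate 4, an alternative chosen after seeing the data, the list's median was -0.21 in Myd88-null against WT and 0.41 in the interaction, with 11 of 12 genes below WT and 11 of 12 positive. That array read 3.46 for Hbegf, the lowest of its group, and 10.32 and 13.96 for Met and Errfi1, the highest of its group. For Egfr it read 11.51 on 1435888_at, the highest of its group, but 9.99 on 1460420_a_at, the lowest. On 1451530_at and 1424932_at it read 7.2 and 11.13, between other arrays of the group. The part of macrophage RNA in the member values was not tested. In simulated arrays with independent noise for each gene and array, 200 of 8515 genes were changed independently. For Ager-null against WT 83.1% of log2 changes of 1 and 37% of changes of 0.5 were recovered, and 55.7% and 9.13% for the interaction. The simulation held no deviations shared between genes and no S ranges, so these shares cannot be carried over to the measured arrays.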

How the data were processed

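The values are log2 expression per probe set as the authors deposited them, computed with GCRMA 2.16 per the submitters' processing notes, and were used without change. They ran from 0.743 to 15.6, with array medians of 2.75 to 2.83. Per the labels' protocols, RNA was labelled with a 3' IVT kit. Further steps: not given in the sources used here.

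Of 45101 probe sets, 64 controls were left out, and 34945 carried 1 gene symbol, 932 several and 9160 none. Groups were taken from the sample titles. All 4 groups were fitted at once with limma 3.58.1 in R 4.3.3, two-sided, with Benjamini-Hochberg adjustment over 8515 genes. The labels describe RNA per mouse, so arrays were treated as separate animals, and their number limits the precision. The members, lists and tests were chosen with earlier results of these data known. Members are named in full for an unadjusted p under 0.05, and Egfr, Met and Errfi1 also against WT. List genes are named where called, or else the 2 with the smallest p. Alternatives were other scalings, filters, probe sets, blocks by S range or replicate number, exact permutation and each array left out. The settings of Egfr probe set 1460420_a_at, and the macrophage list, the Egfr group means and the order of the members with 1 array left out, were added after the data were seen. The fit was tested on simulated data.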

Additional observations from a re-analysis of the deposited data

Results flagged for a closer look

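A single array stood apart from its group in 3 of 80 gene and group combinations checked, and chance flags about 1 in 20. Ereg read 3.74 in WT replicate 5, against 3.02 for the next WT array. Hgf read 3.45 in double-null replicate 3, where the other arrays read 3.29. Both lie under the filter. F12, the gene of coagulation factor XII, read 12.47 in Ager-null replicate 1, against 12.75 to 12.79 on the other arrays of the group.

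Loss of Myd88 went with different changes in the presence and absence of Ager in 3 pathway genes, by the limma test of the interaction: Spred2 (-1.53, adjusted p = 0.034), Pik3r1 (-1.80, adjusted p = 0.044) and Junb (-1.01, adjusted p = 0.049). All 3 calls were lost with the S range as a block, where the estimates were -1.53 for Spred2, -2.38 for Pik3r1 and -1.19 for Junb.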

How the results depend on the processing

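The count of called members was 0 in all 7 comparisons under each of the scalings, filters and blocks tried. With 1 array left out it ranged from 0 to 1 in Ager-null against WT and in double-null against Myd88-null, from 0 to 2 in the interaction, and was 0 in the others. Leaving out Myd88-null replicate 1, Ager-null replicate 1 or WT replicate 3 made these calls.

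Errfi1 in Myd88-null against WT (0.02) was -0.09 with median centring, -0.03 with the mean of its probe sets, -0.08 on 1419816_s_at and -0.05 to 0.14 with 1 array left out. Probe sets under the filter turned other signs. Egfr by 1432647_at and 1454313_at was -0.16 and -0.12 in Ager-null against WT and -0.08 and -0.04 in Ager-null against Myd88-null. Erbb3 by 1452482_at was -0.03 in Myd88-null against WT. Tgfa by 1421942_s_at was -0.14 in Myd88-null against WT and 0.09 in the interaction, and by 1450421_at it was -0.01 in Ager-null against WT, -0.11 in Myd88-null against WT and 0.16 in the interaction. Met by 1422990_at, a probe set past the filter, was -0.01 in Myd88-null against WT. Within S 13 to 20 Egfr was 0.16 in Ager-null against Myd88-null, and Errfi1 was 0.24 in Myd88-null against WT. With the mean of all probe sets of a gene, those under the filter included, Tgfa was 0.17 in Ager-null against WT, 0.03 in Myd88-null against WT and -0.11 in the interaction, Erbb3 0.55, 0.33 and -0.69 in the same order and -0.36 in double-null against Ager-null, and Met 0.15 in Myd88-null against WT. By the same mean the list genes Ptprk and Lrig1 were -0.28 in the interaction and 0.43 in Myd88-null against WT. Their brightest probe sets gave -0.72 and 0.83. The cause was not tested.

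Replicate numbers do not pair the arrays: of 25 pairs with the same number in different groups, 8 had a correlation of deviations over 0.1 (range -0.30 to 0.47), and 3 of 19 arrays correlated best with their own number. With a replicate block Erbb3 in Ager-null against WT was 0.94 (limma adjusted p = 0.072), and no member call changed.

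Over all genes, the count called in Myd88-null against WT (34) was 11 with quantile normalization, 12 with median centring, and 86 when the S range was a block. In Ager-null against WT (107) it was 43 with no filter and 59 with the S block. In double-null against Ager-null (208) it was 91, 120 with the S block and 138 with the replicate block, and in the interaction (205) 76, 0 and 37. In double-null against Myd88-null (13) it was 5 and 3 with these blocks, in Ager-null against Myd88-null (107) 386 with the S block, and in double-null against WT (27) 46 with the replicate block. With 1 array left out the counts ran from 16 to 403, 10 to 987, 18 to 34, 18 to 368, 2 to 446, 30 to 179 and 0 to 1739 for Ager-null, Myd88-null and double-null against WT, double-null against Ager-null and against Myd88-null, Ager-null against Myd88-null and the interaction, with 5 of the 7 highest counts without Myd88-null replicate 1.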
